A study of Salmo salar with 18 samples.

Results

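The genes klf2 (ENSSSAG00000049310) and klf2a (ENSSSAG00000006501) were followed in the gill of Atlantic salmon (Salmo salar) parr, 2 of the 69389 genes in the deposited counts. The pair was chosen by gene identifier, with the values of both genes across the sampling times in view. Their changes with time are therefore given as a description without a test, and the comparison of the diets is tested. The symbol klf2a is that of the RefSeq table of assembly Ssal_v3.1, while klf2 is listed there as a synonym of LOC100286404.

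The fish came from 1 genetic line and ate either LAN4, a control diet supplemented with a hydrolyzed product of the yeast Debaryomyces hansenii, or the control diet alone (CD). They were fed for 7 weeks and acclimatized for 1 more week on the same diet. Acute hypoxia stress was then applied by lifting the fish out of the water in a net for 1 min. Gills were taken from 6 groups of 3 fish: LAN4 and CD at pre-stress (no netting), LAN4 and CD at 1 h post-stress, and LAN4 and CD at 6 h post-stress. Each fish gave 1 library. The tank of each sequenced fish is not given in the labels, so tank cannot be told apart from diet or sampling time, and p-values take the fish as independent. The alignment names put the 6 libraries of 1 h on lane 1 and the 12 others on lane 3, so that lane and the 1 h sampling time cannot be told apart.

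Krüppel-like factors are transcription factors with zinc fingers that bind GC-rich and CACCC motifs. In mammals, KLF2 is made in blood vessel endothelium under steady blood flow, where the kinases MEKK3, MEK5 and ERK5 and the MEF2 factors switch it on and the CCM protein complex (with KRIT1 and CCM2) holds it back. It favours an anti-inflammatory and anti-thrombotic endothelium, and it also keeps T cells quiescent and able to circulate. In zebrafish, klf2a follows blood flow in the developing heart valves and vessels. The gill is a respiratory organ in which blood runs through thin lamellae close to the water.

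Between 10128626 and 19851609 fragments were counted per library. In the 6 h libraries, counts stop partway along the genome, so only the 16 chromosomes counted along their whole length in every library were used (42615 genes, of which 23153 passed the filter on low counts and were tested). Both klf2 and klf2a lie on such chromosomes and passed the filter. These chromosomes carried 7323608 to 14644411 counts per library, and CPM below are counts scaled to their sum, after TMM normalization. The transporter genes slc12a2 (a sodium, potassium and chloride cotransporter, 470.5 to 1072 CPM) and rhbg (an ammonia transporter, 523.4 to 1087 CPM) were found in every library, among the most abundant genes, as is usual for gill.

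klf2 lies on chromosome 3 from 41077317 to 41079625 on the plus strand of Ssal_v3.1, in 3 exon blocks that sum to 2044 bases. klf2a lies on chromosome 10 from 18552102 to 18554983 on the minus strand, also in 3 exon blocks, of 2539 bases. No other annotated gene overlapped either of them. The genes on either side of klf2, ENSSSAG00000094673 at 16396 bases and ENSSSAG00000085860 at 70944 bases, had at most 3 counts in any library. Next to klf2a, LOC106613682 at 11178 bases had log2 fold changes of -0.18 in LAN4 (adjusted p = 0.545) and -0.03 in CD (adjusted p = 0.925) at 1 h against pre-stress by edgeR. On its other side, LOC106613688 at 134673 bases had 0.10 in LAN4 (adjusted p = 0.626) and -0.15 in CD (adjusted p = 0.382) by edgeR.

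klf2 was highest at 1 h post-stress in both diets and was back near its starting level at 6 h. At pre-stress its level was 5.363, 5.196 and 8.947 CPM in the 3 LAN4 fish, against 4.62, 4.97 and 6.31 CPM in the 3 CD fish. At 1 h it was 34.8, 21.5 and 32.4 CPM in LAN4, against 37.0, 20.8 and 23.9 CPM in CD. At 6 h it was 7.27, 10.6 and 6.82 CPM in LAN4, against 5.2, 6.57 and 4.85 CPM in CD. The lowest of the 6 fish at 1 h stood 1.97-fold above the highest of the 12 fish at the other times, so no fish of those times reached the 1 h range. These levels rest on 241 to 427 counts per library at 1 h and on 55 to 66 at pre-stress. Counting error alone gives a coefficient of variation of 4.84 to 6.44% at 1 h and 12.3 to 13.5% at pre-stress, for counting only, since fragments were counted without molecular identifiers.

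Against pre-stress, the 1 h level of klf2 was 4.63-fold higher in LAN4, a log2 fold change of 2.21 (SE 0.27), and 5.14-fold higher in CD, a log2 fold change of 2.36 (SE 0.27). The change in LAN4 minus that in CD was -0.15 on the log2 scale (SE 0.38), which is smaller than its error. At 6 h against 1 h, the log2 fold change of klf2 was -1.84 (SE 0.26) in LAN4 and -2.29 (SE 0.27) in CD. At 6 h against pre-stress it was 0.37 (SE 0.27) in LAN4 and 0.07 (SE 0.28) in CD, and the 6 h and pre-stress fish overlapped in both diets. Over all genes tested, the median log2 fold change at 1 h was -0.00855 in LAN4 and 0.000987 in CD, and 1.14% of the genes in LAN4 and 1.91% in CD were called at an adjusted p under 0.05 (edgeR). These shares are given as background only, since the pair was chosen with these changes known.

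klf2a followed the same order of sampling times at a higher level and with a smaller fold. At pre-stress its level was 94.7, 81.1 and 112.8 CPM in the 3 LAN4 fish, against 91.9, 103.6 and 83.4 CPM in the 3 CD fish. At 1 h it was 294.6, 238.8 and 273.7 CPM in LAN4, against 241.6, 212.8 and 173.6 CPM in CD. At 6 h it was 117.5, 124.8 and 97.2 CPM in LAN4, against 153.3, 108.9 and 111.8 CPM in CD. Here too every fish at 1 h lay above every fish of the other times, but the gap was narrow: the lowest 1 h fish (CD, 173.6 CPM) stood 1.13-fold above the highest other fish (CD at 6 h, 153.3 CPM). Each value rests on 819 to 3614 counts, and counting error alone gives a coefficient of variation of 1.66 to 3.49%.

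Against pre-stress, the 1 h level of klf2a was 2.80-fold higher in LAN4 (log2 fold change 1.49, SE 0.16) and 2.25-fold higher in CD (log2 fold change 1.17, SE 0.16). The change in LAN4 exceeded that in CD by 0.32 on the log2 scale (SE 0.23). At 6 h against 1 h, klf2a had a log2 fold change of -1.25 (SE 0.16) in LAN4 and -0.75 (SE 0.16) in CD. At 6 h against pre-stress in CD, the log2 fold change of klf2a was 0.42 (SE 0.16). The 3 CD fish at 6 h, from 108.9 to 153.3 CPM, lay above the 3 at pre-stress, from 83.4 to 103.6 CPM, by a narrow gap. How many of all genes stood apart in this way was not counted. In LAN4 the 6 h and pre-stress fish overlapped, with a log2 fold change of 0.24 (SE 0.16). The 6 h change in LAN4 minus that in CD was -0.19 (SE 0.23), which is smaller than its error.

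**Figure D1:**
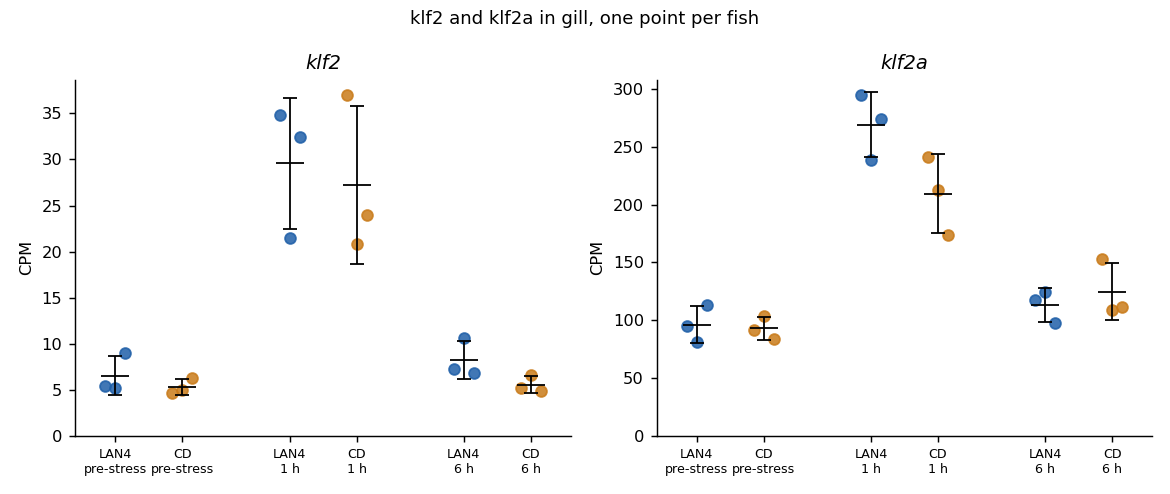
Level of klf2 (left) and klf2a (right) in gill, in CPM on a linear axis from 0. Each point is 1 fish, the long bar is the group mean and the whiskers are 1 SD (n = 3). The 6 fish at 1 h lie above the 12 others for both genes, from 20.8 CPM upward for klf2 and from 173.6 CPM upward for klf2a.

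By group mean, klf2 ran from LAN4 at 1 h (29.6 ± 7.10 CPM, SD, n = 3 here and below) and CD at 1 h (27.3 ± 8.61) down to LAN4 at 6 h (8.23 ± 2.05), LAN4 at pre-stress (6.502 ± 2.12), CD at 6 h (5.54 ± 0.91) and CD at pre-stress (5.30 ± 0.90). Only the step between CD at 1 h and LAN4 at 6 h separated neighbouring groups without overlap. klf2a ran from LAN4 at 1 h (269 ± 28.2 CPM) and CD at 1 h (209 ± 34.1) down to CD at 6 h (125 ± 24.8), LAN4 at 6 h (113 ± 14.3), LAN4 at pre-stress (96.2 ± 15.9) and CD at pre-stress (93.0 ± 10.1). Again only the step below CD at 1 h separated neighbours. Between fish of 1 group, klf2 varied more than klf2a, with a pooled SD of log2 CPM of 0.35 against 0.21, and an edgeR biological coefficient of variation of 21.7% against 14.7%.

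The diets were compared within each sampling time, to ask whether LAN4 altered the level of either gene before or after the stress. Neither gene was called in any of the 3 comparisons. The 95% intervals given with these ratios use a normal approximation and are somewhat narrower than the edgeR test implies. At pre-stress, klf2 in LAN4 was 1.21 times its level in CD (95% interval 0.820 to 1.79, adjusted p = 0.82 by edgeR) and klf2a was 1.03 times (0.829 to 1.29, adjusted p = 0.964), against 0.00864% of all genes called (0.00432% higher and 0.00432% lower in LAN4). The fish of the diets overlapped for both genes, and these intervals do not show that the levels were alike.

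At 1 h post-stress, klf2 in LAN4 was 1.09 times its level in CD (95% interval 0.782 to 1.51, adjusted p = 0.904 by edgeR), and all 3 LAN4 fish lay within the CD range. For klf2a the ratio was 1.29 (1.03 to 1.60), with an unadjusted p of 0.0361 and an adjusted p of 0.577 by edgeR. The highest CD fish (241.6 CPM) stood just above the lowest LAN4 fish (238.8 CPM). In this comparison 0% of all genes were called: 0 genes by edgeR, with 1928 at an unadjusted p under 0.05, and 19 by DESeq2. A difference in klf2a of this size could not be separated from the spread between fish once all genes were taken into account.

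At 6 h post-stress, all 3 LAN4 fish (6.82 to 10.6 CPM) had more klf2 than all 3 CD fish (4.85 to 6.57 CPM). The gap was narrow: the lowest LAN4 fish rests on 92 counts and the highest CD fish on 91. Counting error alone gives each a coefficient of variation of 10.4 to 10.5%, so the gap lies within it. klf2 in LAN4 was 1.49 times its level in CD (95% interval 1.03 to 2.14). Its unadjusted p was 0.0487 and its adjusted p was 0.321 by edgeR, so it was not among the 0.587% of all genes called (136 genes, with 0.51% of all genes higher and 0.0777% lower in LAN4). In this comparison 3562 of the 23153 genes tested had an unadjusted p under 0.05 by edgeR. How many of all genes stood apart between the diets without overlap was not counted. klf2a leaned the other way at 0.908 times its level in CD (0.730 to 1.13, adjusted p = 0.731 by edgeR), and its fish overlapped between the diets.

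Summed levels of marker genes in the same libraries were set beside these differences between the diets. At 6 h the summed level of 12 endothelial marker genes was 1310 to 1586 CPM in LAN4 and 841.4 to 1274 CPM in CD, without overlap, and that of 9 skeletal muscle genes was 680.9 to 931.4 CPM in LAN4 and 179.7 to 417.9 CPM in CD. The muscle sum stood apart between the diets at pre-stress (836.3 to 949.1 CPM in LAN4 and 191.4 to 584.3 CPM in CD) and at 1 h (458 to 768.5 CPM in LAN4 and 186.4 to 428.6 CPM in CD) as well, where klf2 overlapped. Of the 12 endothelial genes, vwf and pecam1b carried most of the sum in every group. At 6 h their means were 752.4 and 417.3 CPM in LAN4 and 530.6 and 349.9 CPM in CD. Only pecam1a of the 12 was called between the diets at 6 h by edgeR, against 0.587% of all genes. Per 1000 CPM of endothelial markers, klf2 at 6 h was 4.97 to 6.67 CPM in LAN4 and 3.81 to 7.80 CPM in CD, and the diets overlapped. At 1 h the same quotient of klf2a was 215.4 to 240.5 in LAN4 and 134.5 to 206.9 in CD, which did not overlap. At 1 h the summed level of 14 erythrocyte genes was also apart, with 3095 to 3158 CPM in LAN4 and 2441 to 2739 CPM in CD. The part of endothelium, erythrocytes and muscle in the differences of klf2 and klf2a between the diets was not tested. In a bulk tissue, fewer cells of a type and less RNA per cell cannot be told apart.

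The 1 h level of klf2 and klf2a was also set against these markers. The endothelial sum was 1015 to 1270 CPM at 1 h and 1135 to 1637 CPM at pre-stress in LAN4, and 1168 to 1341 CPM at 1 h and 1069 to 1295 CPM at pre-stress in CD, so the times overlapped in both diets. Per 1000 CPM of endothelial markers, klf2 was 21.2 to 28.4 CPM at 1 h and 3.65 to 5.47 CPM at pre-stress in LAN4, and 15.5 to 31.7 CPM at 1 h and 4.01 to 4.87 CPM at pre-stress in CD. For klf2a it was 215.4 to 240.5 CPM at 1 h and 64.4 to 71.4 CPM at pre-stress in LAN4, and 134.5 to 206.9 CPM at 1 h and 64.4 to 86.0 CPM at pre-stress in CD. The 1 h and pre-stress fish did not overlap on this measure in either diet, for either gene. The summed level of 5 lymphocyte genes was higher at 1 h without overlap, with 135.5 to 155.4 CPM at 1 h and 105.6 to 120 CPM at pre-stress in LAN4, and 142.8 to 158.7 CPM at 1 h and 114.3 to 132.8 CPM at pre-stress in CD. CD4 had the highest mean of the 5 in every group, with 70.35 CPM at 1 h and 55.09 CPM at pre-stress in LAN4, and 77.78 and 61.22 CPM in CD. The T cell genes cd3e and lck had log2 fold changes of 0.19 and 0.45 in LAN4, and of 0.27 and 0.007 in CD. None of these lymphocyte genes was called in either diet by edgeR. Of all genes 1.14% were called in LAN4 and 1.91% in CD, shares at which 5 genes would rarely hold a call. In LAN4 the erythrocyte sum was also higher without overlap, with 3095 to 3158 CPM at 1 h and 2621 to 2959 CPM at pre-stress, and the muscle sum lower, with 458 to 768.5 CPM at 1 h and 836.3 to 949.1 CPM at pre-stress. In CD both sums overlapped between the times, with 2441 to 2739 CPM at 1 h and 2600 to 2994 CPM at pre-stress for erythrocytes and 186.4 to 428.6 CPM at 1 h and 191.4 to 584.3 CPM at pre-stress for muscle. The erythrocyte genes did not move alike in LAN4. There rhag averaged 825.0 CPM at 1 h and 689.6 CPM at pre-stress, and alas2 624.7 and 556.5 CPM. The hemoglobin gene hbb1 averaged 185.1 and 182.5 CPM, and the more abundant nfe2 entry 649.5 and 664.7 CPM. None of the 14 erythrocyte genes was called at 1 h in LAN4 by edgeR, against 1.14% of all genes. The part of these cell types in the 1 h values of klf2 and klf2a was not tested. No tested marker of the 4 cell types was at 0 in all fish of a group.

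Compared per kilobase of exon, klf2a was the more abundant gene in all 18 libraries. Over all libraries klf2 averaged 6.72 CPM per kb, at percentile 63.0 of the genes tested, and klf2a averaged 59.4 CPM per kb, at percentile 96.3. The ratio of klf2a to klf2 per kb was 7.52 ± 1.24 in LAN4 and 6.44 ± 1.58 in CD at 1 h (SD, n = 3), against 12.3 ± 2.04 in LAN4 and 14.5 ± 3.36 in CD at pre-stress. At 6 h it was 11.3 ± 1.76 in LAN4 and 18.6 ± 5.19 in CD. The ratio needs no scaling between libraries, because both genes were counted in the same one.

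Expressed as a share, klf2 made up 10.06 to 15.99% of the counts per kb of the pair in the 6 fish at 1 h, with a median of 12.8%, and 4.04 to 9.53% in the 12 other fish, with a median of 7.05%. The fish at 1 h did not overlap with the others, but the gap from 9.53 to 10.06% was narrow. At 6 h the share was 7.14, 9.53 and 8.02% in LAN4, against 4.04, 6.97 and 5.11% in CD. Every LAN4 fish stood above every CD fish, but the nearest, at 7.14 and 6.97%, rest on 88 and 91 counts of klf2. Counting error alone gives these counts a coefficient of variation of 10.7 and 10.5%, so that gap lies within it. At pre-stress it was 6.57, 7.37 and 8.97% in LAN4, against 5.87, 5.62 and 8.60% in CD, and the diets overlapped. The differences in share are a description and were not tested.

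**Figure D2:**
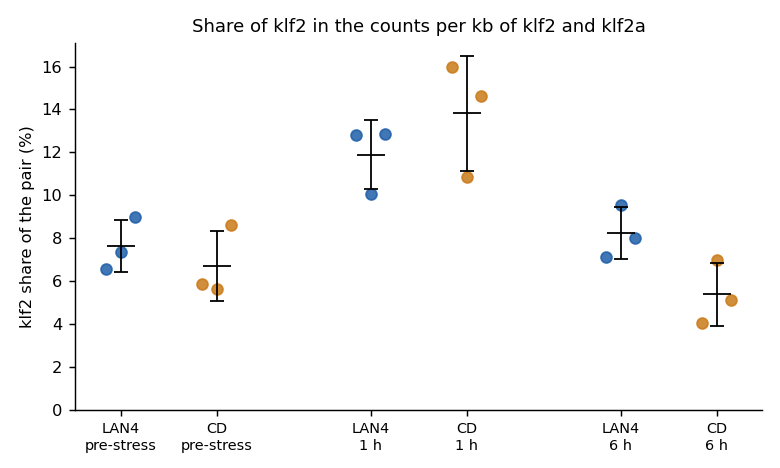
Share of klf2 in the summed counts per kb of exon of klf2 and klf2a, in percent, on a linear axis from 0. Each point is 1 fish, the long bar is the group mean and the whiskers are 1 SD (n = 3). The 6 fish at 1 h lie at 10.06% or above and the 12 others at 9.53% or below.

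The other KLF genes were measured beside klf2 and klf2a. By symbol, 5 further KLF genes were matched and 4 of them lay on chromosomes counted in full and were tested. At 1 h against pre-stress, 0 of the 4 were called in LAN4 and 0 of 4 in CD by edgeR, against 1.14% of all genes in LAN4 and 1.91% in CD, shares at which 4 genes would rarely hold a call. The fifth, klf12b, was not analysed here.

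klf4, which shares many targets with klf2 in mammalian endothelium, had the largest log2 fold change of the 4 in LAN4, 0.50 (adjusted p = 0.224), and 0.19 in CD (adjusted p = 0.62; both edgeR). klf6a, an injury response factor in mammals, had 0.24 in LAN4 (adjusted p = 0.34) and 0.30 in CD (adjusted p = 0.185; both edgeR). klf8 had -0.04 in LAN4 (adjusted p = 0.902) and 0.31 in CD (adjusted p = 0.193; both edgeR). klf11a, of a TGF-beta-induced subgroup, had -0.09 in LAN4 (adjusted p = 0.791) and 0.02 in CD (adjusted p = 0.96; both edgeR), and its sign changed in both diets when single fish were left out, as did that of klf8 in LAN4.

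Between 1 h and 6 h, 2 of the 4 genes changed, in LAN4: klf4 fell by 0.74 on the log2 scale (adjusted p = 0.0185) and klf11a rose by 0.47 (adjusted p = 0.0257; both edgeR), against 7.97% of all genes called in that comparison (4.3% higher and 3.67% lower at 6 h). In CD, 0 of the 4 were called, against 11.8% of all genes (5.48% higher and 6.32% lower at 6 h). Per kb, the levels of klf4 (19.3 CPM), klf6a (18.2), klf11a (14.2) and klf8 (3.67) averaged over all libraries lay below klf2a (59.4). The place of klf2 among them differed with the sampling time. At pre-stress, klf2 at 3.18 CPM per kb in LAN4 and 2.59 in CD had a lower mean than klf8 at 3.67 in LAN4 and 3.29 in CD. At 1 h, klf2 at 14.5 CPM per kb in LAN4 and 13.3 in CD had a higher mean than klf11a at 12.7 in LAN4 and 13.1 in CD, by less than the SD of klf2.

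**Figure D3:**
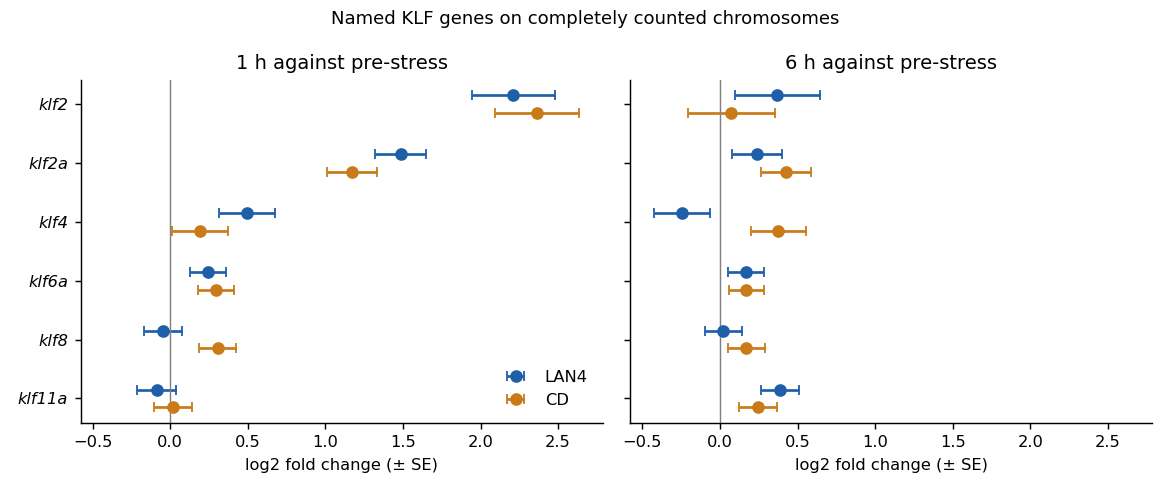
Log2 fold change of the 6 named KLF genes on chromosomes counted in full, at 1 h against pre-stress (left) and 6 h against pre-stress (right). Points are edgeR estimates from 3 fish per group, with whiskers of 1 SE, for LAN4 (upper point) and CD (lower point). At 1 h, klf2 and klf2a lie between 1.17 and 2.36 and the other genes between -0.09 and 0.50.

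Genes listed as upstream of KLF2 in the endothelium of mammals or zebrafish were measured as well. From 24 names, 8 genes were matched on the chromosomes used and tested: the CCM genes krit1 and ccm2, the factors mef2aa and mef2cb, the coactivator wwtr1, the junction genes pecam1a and pecam1b, and the receptor flt1. The kinases MEKK3, MEK5 and ERK5 were not among them, so the counts below cover only part of the upstream pathway. At 1 h against pre-stress 0 of 8 were called in LAN4 and 0 of 8 in CD by edgeR, against 1.14% and 1.91% of all genes, and the median change of the 8 genes was -0.03 in LAN4 and 0.29 in CD on the log2 scale. Between 1 h and 6 h, 4 of the 8 were called lower in CD by edgeR (median of the 8 genes -0.37), against 6.32% of all genes. They were mef2cb, pecam1a, mef2aa and flt1, named after their values were seen. In LAN4, 0 of the 8 were called (median 0.03), against 7.97% of all genes. The part of endothelium in the fall in CD was not tested. At 6 h, where klf2 had higher values in LAN4 without being called, 2 of the 8 upstream genes were higher in LAN4 than in CD. Of all genes 0.587% were called there. The genes were mef2cb, by 1.01 on the log2 scale (adjusted p = 0.0411), and pecam1a, by 0.56 (adjusted p = 0.0409; both edgeR). Both calls were lost, with 0 genes called between the diets at 6 h, when all genes of the table were fitted and when LAN4 6 h replicate 2 or 3 or CD 6 h replicate 2 was left out. The fit of all genes takes in chromosomes on which the 6 h counts stop, so missing counts enter its 6 h groups. The other settings called from 11 genes (without CD 1 h replicate 2) to 777 (with DESeq2). Whether mef2cb and pecam1a were among them was not followed. Both were named after their values were seen, and the endothelial marker list also holds pecam1a.

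Of the genes known as targets of KLF2 in other vertebrates (41 names), 24 genes were matched, 18 lay on the chromosomes used and 15 were tested. The counts below therefore cover only part of the known targets. Some of the 15 had low levels, such as selp (group means of 0.37 to 0.90 CPM) and sele (0.79 to 2.43 CPM). At 1 h against pre-stress, 0 of 15 were called in LAN4 (median log2 fold change -0.06) and 1 of 15 in CD (median 0.14), against 1.14% of all genes called in LAN4 and 1.91% in CD. The gene was ptgs2b, which codes for a cyclooxygenase-2 of prostaglandin synthesis, with 0.86 in LAN4 (adjusted p = 0.168) and 1.14 in CD (adjusted p = 0.0391; both edgeR). The call in CD was lost in 15 of 25 other settings. Its adjusted p by edgeR was 0.115 to 0.139 without CD pre-stress replicate 2 or 3 or CD 1 h replicate 1 or 2, 0.0505 to 0.0558 without 1 of 8 libraries of other groups, 0.0892 with all genes of the table, 0.0731 without a filter on low counts and 0.224 with only the libraries compared. In LAN4, where ptgs2b was not called, it passed with DESeq2 (adjusted p = 0.0477) and with only the libraries compared (adjusted p = 0.044 by edgeR), so the count of 0 in LAN4 depends on the setting too. The other targets did not pass the edgeR test at 1 h in either diet. The list was not split by whether KLF2 raises or lowers a target, so its medians do not say whether the targets followed klf2.

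Between 1 h and 6 h, when klf2 and klf2a came down, 5 of 15 targets were called in LAN4 and 3 of 15 in CD by edgeR, against 7.97% of all genes in LAN4 and 11.8% in CD, named here after their values were seen. In LAN4, ptgs2b (log2 fold change -1.18), klf4 and vegfab, a vascular growth factor gene (-0.55), fell. The endothelin gene edn1 (1.25) and acvrl1, a receptor of endothelium (0.38), rose in LAN4. In CD, ptgs2b (-1.20), the gap junction gene gja4 (-1.66) and the caveolin gene cav1 (-0.44) fell. In that comparison in CD, 5 of the 12 endothelial marker genes were called lower too (median log2 fold change -0.57), against 6.32% of all genes. In LAN4, 0 of the 12 were called, against 7.97% of all genes. The part of endothelium in the fall of these targets was not tested. At 6 h, where klf2 had higher values in LAN4 without being called, 0 of 15 targets were called between the diets by edgeR. Of all genes 0.587% were called there, a share at which 15 genes would rarely hold a call.

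Immediate early genes, which cells transcribe within minutes of a stimulus, were also higher at 1 h, beside klf2 and klf2a. At 1 h against pre-stress, 12 of 18 tested genes (from 37 names) rose and 1 fell in LAN4 (median log2 fold change 1.30), and 11 rose and 1 fell in CD (median 1.345). Over all genes tested, 0.963% rose and 0.173% fell in LAN4, and 1.28% rose and 0.635% fell in CD. The list and the pair were chosen with earlier results of these libraries known, and the counts are a description.

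The 4 genes with the largest change in either diet were named. They were ccn1, a secreted matricellular protein gene (3.24 in LAN4 and 2.91 in CD, adjusted p = 2.59e-08 and 1.12e-07 by edgeR), and egr3, a zinc-finger factor (4.05 and 2.53, adjusted p = 0.00473 and 0.0329 by edgeR). The other two were ier2, a nuclear response gene (3.12 and 2.71, adjusted p = 8.95e-07 and 3.35e-06 by edgeR), and cebpb, a bZIP factor of inflammation (2.94 and 2.08, adjusted p = 0.000135 and 0.00252 by edgeR). The change of klf2 in LAN4 lay below all 4, also with any 1 library left out (at most 2.47, against at least 2.79 for cebpb). In CD its place among them turned on single fish, since the change of egr3 was 2.10 without CD pre-stress replicate 2 and 4.21 without replicate 1, and that of cebpb was 2.63 without CD pre-stress replicate 1. The call of egr3 in CD was lost in 7 of 25 other settings, with an adjusted p by edgeR of 0.0851 to 0.115 without CD pre-stress replicate 2 or 3 or CD 1 h replicate 1 or 2, 0.0836 with all genes of the table, 0.0613 without a filter on low counts and 0.247 with only the libraries compared. That of cebpb in CD was lost (adjusted p = 0.0775 by edgeR) when only the libraries compared were fitted. The klf2a change was smaller than that of all 4 in both diets. The 4 were picked for the largest changes, so a place below them follows in part from that choice. Of the other immediate early genes called higher in LAN4 by edgeR, junb (2.80), dusp2 (2.70) and ier2a (2.37) had larger changes there than klf2 (2.21). The changes of btg2 (1.505), atf3 (1.355), fosl2 (1.24), jun (1.15) and nr4a3 (0.88) were smaller.

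Over the 18 libraries, klf2 and klf2a had a Pearson correlation of 0.92 in log2 CPM. Among 19966 genes compared, klf2a ranked 14 by likeness to klf2, and klf2 ranked 22 by likeness to klf2a. The points share the sampling times and the lanes, so these correlations describe the common 1 h values and carry no test. The gene most like klf2 was ccn1 (r = 0.96), and the gene most like klf2a was tisb (r = 0.96), whose product by its name belongs to the ZFP36 proteins that promote decay of mRNAs. ccn1 was measured at 101.3 to 164.4 CPM at 1 h, against 11.6 to 20.7 CPM at the other times, and tisb at 522.9 to 791.8 CPM, against 127.5 to 290.4 CPM.

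The next genes by likeness to klf2 were LOC106606687, ENSSSAG00000045856, ENSSSAG00000073498 and LOC106580552, each with r = 0.95. For klf2a they were LOC106611914 (0.96), ENSSSAG00000045856 (0.95), LOC106598526 (0.95) and LOC106573907 (0.95). The sources used here do not annotate what these genes do. Only ENSSSAG00000045856, on chromosome 12, was among the 5 nearest of both members, and 68 genes were shared between the nearest 100 of klf2 and the nearest 100 of klf2a, 68 in 100 of either list. It was measured at 100.2 to 145.6 CPM at 1 h, against 4.38 to 11.3 CPM at the other times. All 9 named genes had higher values in every 1 h fish than in any other fish. They were picked by likeness to klf2 or klf2a, which have this pattern in the same libraries, so their separation follows largely from the choice. The ranks depended on the measure: by Spearman's rho ccn1 ranked 23 for klf2 and tisb ranked 38 for klf2a.

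At 6 h against pre-stress, when klf2 and klf2a had come most of the way down, 3.78% of all genes were called in LAN4 (2.36% higher and 1.42% lower) and 3.11% in CD (1.81% higher and 1.3% lower). Of the immediate early genes, 6 of 18 were higher in LAN4 and 4 of 18 in CD. Of the upstream genes, 0 of 8 were called in LAN4 and 1 of 8 in CD, where pecam1a fell by 0.51 on the log2 scale (adjusted p = 0.0226 by edgeR). Of the targets, 1 of 15 was called in LAN4, where vegfab fell by 0.49 (adjusted p = 0.0249 by edgeR), and 0 of 15 in CD. None of the 4 other KLF genes was called in either diet.

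**Figure D4:**
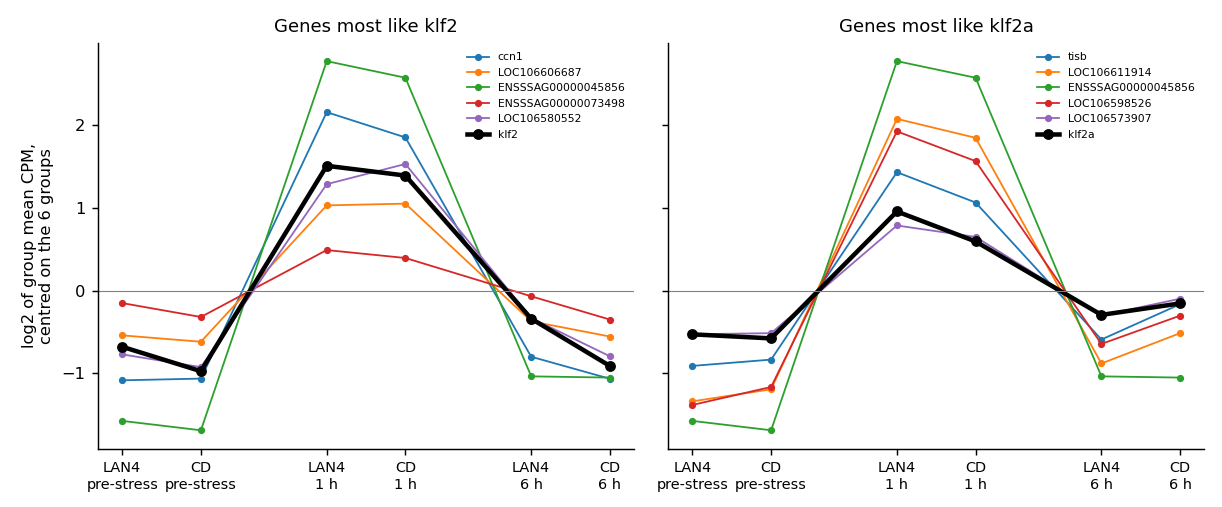
Group means of CPM on a log2 scale, centred on the mean of the 6 groups, for klf2 (left, heavy black line) and klf2a (right, heavy black line) with the 5 genes most like each. The lines join the groups of the same gene and do not stand for a course within a fish. Every gene shown has its highest values in the 1 h groups, and the thin lines are genes picked by likeness to klf2 or klf2a. At 6 h the mean of klf2 lies above that of CD in LAN4, and the mean of klf2a lies below it.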

How the data were processed

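Stranded mRNA libraries were made from the gills of 18 fish. The authors ran nf-core rnaseq against the assembly Ssal_v3.1 and deposited raw counts, the number of fragments assigned to each gene by featureCounts (Subread 1.5.1). Per the file headers, counting was reverse-stranded and by fragment, multi-mapping reads and those shared by overlapping genes were left out, and duplicates were kept. Libraries held 10128626 to 19851609 counts. Because the counts of 6 h libraries stop partway along the genome, genes of 16 of the 29 chromosomes were used. A chromosome was kept when the fraction of its genes with a count reached, in every library, 0.9 of the mean over the pre-stress and 1 h libraries. These chromosomes held 79.88 to 99.08% of the counts at 6 h and 72.29 to 72.73% in the other libraries.

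Counts were scaled by TMM, filtered with filterByExpr and fitted in edgeR 4.0.16 (R 4.3.3; robust glmQLFit, glmQLFTest) with 1 mean per group over 18 libraries. P-values were adjusted by Benjamini and Hochberg over the 23153 genes tested, at a threshold of 0.05. The fit was tested on simulated data. Log2 CPM used a prior count of 2. Gene symbols came from the RefSeq table by position (overlap of at least 0.5 of both spans, 34983 genes matched, and 6621 on the chromosomes used with a name other than a LOC number), so list members known only by a LOC number were not found. No sequences were used here.

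The members, the 8 gene lists and the tests were chosen with earlier results of these data known. Genes named by rule were the pair, the KLF genes tested, the nearest neighbours and the 5 genes most like each member. Likeness was Pearson's r among genes with a mean log2 CPM of at least 1. Of each other list, the rule named up to 4 genes with the largest change among those called at 1 h against pre-stress. Other genes of the lists were named outside the rule, some after their values were seen. The transporter genes slc12a2 and rhbg were named as genes usual for gill. Alternatives were a fit of all genes of the table, no filter on low counts, DESeq2 1.42.0, its size factors in the edgeR test, the library size without TMM factors, the libraries compared alone, the replicate number as a block, and each library left out. Same-numbered libraries had correlations of -0.168 to 0.22 in their deviations from group means (21 pairs). At pre-stress all 3 pairs of LAN4 and CD libraries passed 0.1 (0.114, 0.151 and 0.142). The labels do not say that equal numbers pair the fish, and the reported fit leaves the numbers out at every sampling time. The fit with the replicate number as a block covers all 18 libraries and is given below.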

Additional observations from a re-analysis of the deposited data

How the results depend on the processing

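Over the 7 other settings and the 18 fits with 1 library left out, 443 of the 450 values of klf2 and klf2a kept their sign, and no difference between the diets passed the threshold (lowest adjusted p 0.27 by edgeR, for klf2 at 6 h). Many of the 450 come from fits without a library of a group not compared, which hardly move a value, so their sign could hardly change. The other 7 of the 450 values changed sign: 5 of the diet comparison, given next, and 2 of klf2 at 6 h against pre-stress in CD, which lay between -0.071 and 0.21. For klf2, LAN4 against CD at 1 h was -0.042 without CD 1 h replicate 2 and -0.024 without LAN4 1 h replicate 1. For klf2a, LAN4 against CD at 6 h was 0.048 without CD 6 h replicate 1, and at pre-stress it was -0.026 without CD pre-stress replicate 3 and -0.077 without LAN4 pre-stress replicate 3. At 1 h against pre-stress, klf11a in CD was -0.063 without CD pre-stress replicate 1 and -0.0039 without CD 1 h replicate 3, klf11a in LAN4 was 0.041 without LAN4 pre-stress replicate 3, and klf8 in LAN4 was 0.10 without LAN4 pre-stress replicate 2. The ranges with 1 library left out were -0.063 to 0.086 for klf11a in CD, -0.215 to 0.041 for klf11a in LAN4 and -0.12 to 0.10 for klf8 in LAN4. The cause was not tested.

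With 1 library left out, the log2 change of klf2 at 1 h against pre-stress lay between 2.06 and 2.47 in LAN4 and between 2.08 and 2.52 in CD, and that of klf2a between 1.38 and 1.60 in LAN4 and between 1.05 and 1.29 in CD. For LAN4 against CD the ranges of klf2 were 0.0067 to 0.41 at pre-stress, -0.042 to 0.40 at 1 h and 0.34 to 0.72 at 6 h, and those of klf2a were -0.077 to 0.16 at pre-stress, 0.23 to 0.48 at 1 h and -0.22 to 0.048 at 6 h. With the replicate number as a block, klf2 in LAN4 against CD was 0.27 at pre-stress (adjusted p = 0.84), 0.12 at 1 h (adjusted p = 0.909) and 0.58 at 6 h (adjusted p = 0.356), and klf2a was 0.05 (adjusted p = 0.96), 0.37 (adjusted p = 0.596) and -0.13 (adjusted p = 0.742), all by edgeR. The block changed no call of either gene.

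The number of all genes called moved more. For LAN4 against CD it was 1 at pre-stress with all genes of the table, 105 with DESeq2, 23 with only the libraries compared, 1 with the block and 1 to 4 with 1 library left out (2 as reported). At 1 h it was 4 with all genes, 19 with DESeq2 and 0 to 1 with 1 library left out (0 as reported). At 6 h it was 0 with all genes, a fit that takes in chromosomes on which 6 h counts are missing. The number called at 6 h was 777 with DESeq2, 33 with only the libraries compared and 0 to 362 with 1 library left out (136 as reported). At 1 h against pre-stress it was 517 with DESeq2 and 167 to 310 with 1 library left out in LAN4 (263 as reported), and 294 with all genes, 1031 with DESeq2 and 171 to 599 with 1 library left out in CD (443 as reported). Between 8 and 13 immediate early genes rose at 1 h in either diet over all settings. The log2 ratio of klf2 to klf2a from raw counts, without division by length, was -3.92 in LAN4 at pre-stress, -3.21 in LAN4 at 1 h and -3.80 in LAN4 at 6 h, against -3.61, -2.90 and -3.49 per kb. Dividing by length shifts all libraries alike. The klf2 values at pre-stress and 6 h rest on 55 to 154 counts per library, fewer than any of klf2a.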
